A study of Mus musculus with 29 samples.

Results

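Gene expression in skeletal muscle was compared between fed mice lacking the class IA phosphoinositide 3-kinase (PI3K) subunit p110α in muscle fibers and fed floxed controls. The comparison comprised the 8 libraries whose labels read fed and p110alpha, 4 from knockout mice (M-p110αKO) and 4 from controls with intact p110α, out of 29 libraries in the series. The mice were males on a C57BL/6J background by the study and were aged 2–3 months by the submitted description. None of the 8 libraries came from fasted mice. In M-p110αKO, Cre recombinase under the human alpha-skeletal actin (HSA) promoter, which is active in skeletal muscle fibers, removes the floxed exon 1 of Pik3ca, so other cells of the muscle keep the gene. The labels call the tissue skeletal muscle and the study names the tibialis anterior (TA). Fasted mice of the same line (4 controls and 3 M-p110αKO) and fed mice of a p110β line (3 floxed controls and 4 M-p110βKO) were read beside them. Of 48023 genes in the counts table, 12433 had enough reads for a test.

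Class IA PI3K is recruited to the insulin and IGF1 receptors and their substrates, where it makes the lipid PIP3 that activates AKT. In skeletal muscle this pathway promotes glucose uptake, glycogen storage and protein synthesis, and it holds FoxO transcription factors, which drive genes of protein breakdown, out of the nucleus. Feeding is the state in which insulin, and with it PI3K signalling, is normally high.

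The 8 fed libraries held 5351935–11653239 assigned reads in controls and 7947413–11450717 in M-p110αKO. Levels are reads divided by the TMM-scaled library size (CPM), controls are numbered 1 to 4 and M-p110αKO 5 to 8, and errors are SD for levels (n = 4) and SE for log2 fold changes. A gene is called when its edgeR quasi-likelihood p, adjusted by Benjamini and Hochberg over all genes tested, is under 0.05. Muscle fiber markers were abundant in every library, at 113113–158211 CPM summed over 10 genes. Reads were summed over all exons and do not check the deletion of exon 1: Pik3ca averaged 126 ± 19.4 CPM in controls and 135 ± 23.0 CPM in knockouts. Pik3cb averaged 11.1 ± 1.10 CPM in controls and 12.2 ± 1.94 CPM in knockouts, and neither was called. The study separately measured a fall of p110α mRNA and protein in hindlimb muscle of M-p110αKO, which these counts do not show. The labels do not say whether each library came from a separate mouse, so p-values measure the spread between these libraries.

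In fed M-p110αKO 76 genes were called, 0.611% of those tested: 24 were higher (0.193%) and 52 lower (0.418%). The rises included Igfn1, a sarcomere-associated protein, the imprinted noncoding RNAs Mirg and H19, and Npr3, the clearance receptor for natriuretic peptides. The falls included the cadherin Cdh4, the muscle-enriched mitochondrial protein Mss51, the adaptor Shc2 and the thick filament protein Mybph. The median size of the 76 log2 fold changes was 0.98, and 14 rises and 23 falls exceeded 1. The knockout and control libraries did not overlap for 23 of the 24 rises and 50 of the 52 falls, and over all genes tested 2.71% lay fully higher and 3.88% fully lower. The called genes included 66 protein-coding genes and 6 lincRNAs, and 55 of the 76 were in none of the pathway lists used below. On chromosome 3, which carries Pik3ca, 2 of 633 genes were called. The count rested on single libraries: it was 38 without control 1, 20 without control 2, 16 without M-p110αKO 6 and 38 without M-p110αKO 8. The genes that stayed called with any 1 of the 8 libraries left out and under every other alternative numbered 15, namely Igfn1, Mirg, H19, Catsperg1, Dusp26, Ppp1r1a, Tspan13, Cdh4, Shc2, Mybph, 2310065F04Rik, Igfbp5, Itga4, Tdrp and Extl3. Every other called gene lost the call in at least 1 of these fits.

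**Figure D1:**
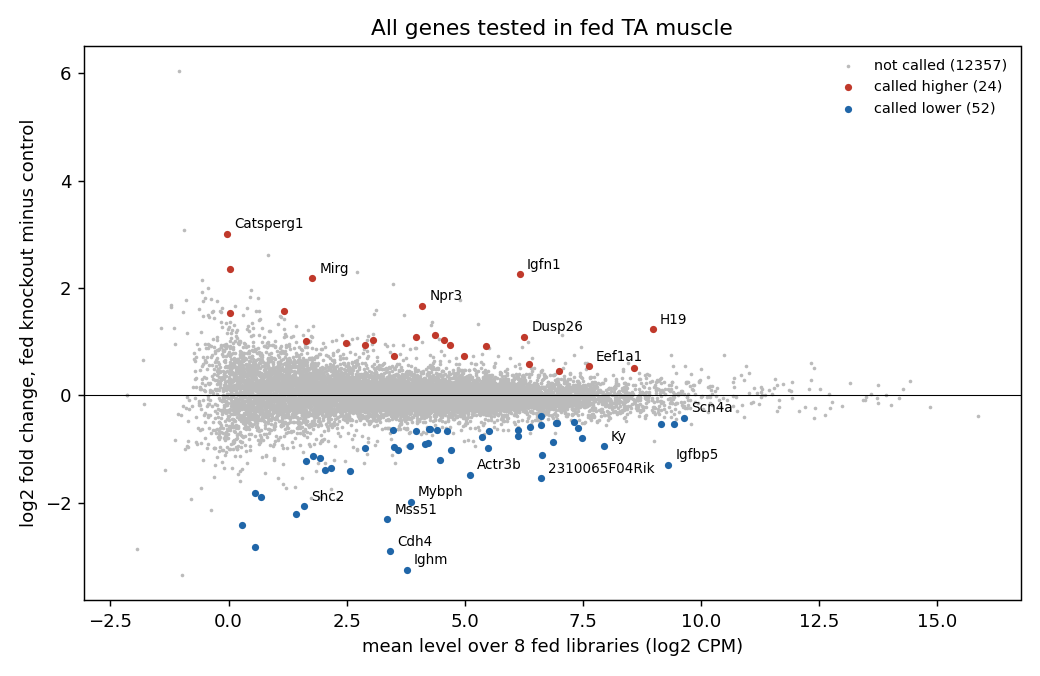
Each point is 1 of the 12433 genes tested, with its mean level over the 8 fed libraries (log2 CPM, horizontal) and its log2 fold change, knockout minus control (vertical). The 24 red points were called higher and the 52 blue points lower, from Catsperg1 at 3.01 to Ighm at −3.25, and abundant genes such as Scn4a were called at small changes.

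In the lists of insulin and IGF signalling Grb14 and Igfbp5 were called lower. Shc2, described beside them, is in no list and was picked for its call. Of 13 tested subunits of class I PI3K and phosphatases of PIP3, 0 were called by edgeR, with 1 nominally higher and 1 nominally lower (an unadjusted p under 0.05, which 5.17% of all genes reached as higher and 6.53% as lower). The lower gene was Inppl1, the 5-phosphatase SHIP2 that removes PIP3, which read 102 ± 6.62 CPM in controls and 72.7 ± 13.3 CPM in knockouts with a log2 fold change of −0.48 ± 0.12 (edgeR adjusted p = 0.083). Around the receptors, Grb14, an adaptor that binds the insulin receptor and inhibits its kinase, fell. Grb14 measured 16.9, 16.6, 17.5 and 17.2 CPM in controls 1 to 4 and 6.59, 6.58, 10.7 and 9.60 CPM in M-p110αKO 5 to 8. The controls lay within 1 CPM of each other and above every knockout, and the log2 fold change was −1.02 ± 0.18 (edgeR adjusted p = 0.0144). Shc2, an adaptor that binds phosphorylated receptor tyrosine kinases, measured 6.45, 5.44, 4.43 and 6.45 CPM in controls and 1.37, 0.834, 1.80 and 1.50 CPM in knockouts. No knockout reached the lowest control, and Shc2 fell by 2.07 ± 0.30 on the log2 scale. Igf1r, the IGF1 receptor, had a log2 fold change of 0.36 ± 0.08 (edgeR adjusted p = 0.0591) and was higher in all 4 knockouts than in any control. Among 14 receptors and substrates Grb14 was the only gene called and the median log2 fold change was −0.10, against 0.00 over all genes tested.

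Among 9 IGFs and IGF binding proteins 1 was called, Igfbp5, which binds IGFs in the matrix and at the cell surface. It measured 1088, 998, 824 and 1125 CPM in controls and 516, 362, 472 and 294 CPM in knockouts. It was among the most abundant genes called, the groups lay apart, and it fell by 1.30 ± 0.19 on the log2 scale (edgeR adjusted p = 0.00409). No other member was called, 5 of the 9 were positive and the list median, Igfbp5 included, was 0.28. Igf2 read 13.0 ± 1.96 CPM in controls and 18.2 ± 3.45 CPM in knockouts, a log2 fold change of 0.49 ± 0.15 (edgeR adjusted p = 0.184).

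Downstream, 0 of 30 genes of the AKT and mTOR pathway were called by edgeR, with 1 nominally higher and 3 nominally lower and a median of −0.10. Eif4ebp2, a repressor of cap-dependent translation, read 83.1 ± 9.80 CPM in controls and 59.5 ± 8.07 CPM in knockouts (−0.48 ± 0.13, edgeR adjusted p = 0.118), and Deptor, an inhibitor of mTOR, had a log2 fold change of 0.41 ± 0.17 (0.366). Of 30 FoxO factors and FoxO target genes 0 were called by edgeR, 3 were nominally higher and 0 nominally lower, and the median was 0.10, with 21 positive. Gadd45a, a stress gene that FoxO factors can induce, read 9.38 ± 3.97 CPM in controls and 18.3 ± 3.50 CPM in knockouts, but the groups overlapped and its edgeR adjusted p was 0.1. Genes of myostatin, activin and BMP signalling, which restrain or promote muscle mass, had a median of −0.15 in 25 tested, with 0 nominally higher and 4 nominally lower and 0 called by edgeR. Myostatin itself, Mstn, read 56.4 ± 5.48 CPM in controls and 35.5 ± 9.54 CPM in knockouts (−0.67 ± 0.20 on the log2 scale, edgeR adjusted p = 0.157), and the related ligand Gdf11 read 9.14 ± 2.86 CPM in controls and 4.61 ± 0.484 CPM in knockouts (−1.01 ± 0.24, edgeR adjusted p = 0.07).

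Cdkn1a and Cdkn2c, which halt the cell cycle, rose. Of 22 tested p53 targets and cell cycle inhibitors 2 were called higher and 0 lower, 7 were nominally higher and 0 nominally lower, and the median was 0.20. Cdkn1a, the cyclin-dependent kinase inhibitor p21, measured 18.8, 15.7, 18.5 and 22.0 CPM in controls and 34.5, 37.2, 26.3 and 45.5 CPM in M-p110αKO. Cdkn2c, the inhibitor p18 of CDK4 and CDK6, measured 6.23, 4.68, 4.82 and 4.97 CPM in controls and 10.7, 10.7, 10.2 and 8.46 CPM in knockouts. Every knockout exceeded every control for both, with log2 fold changes of 0.93 ± 0.17 (edgeR adjusted p = 0.0155) and 0.94 ± 0.18 (0.0166). Of the other inhibitors, Cdkn1c (p57) read 22.5 ± 4.32 CPM in controls and 36.1 ± 6.96 CPM in knockouts, also without overlap, but was not called (edgeR adjusted p = 0.0856).

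The imprinted noncoding RNAs H19 and Mirg are shown with sequence because each is the precursor of short regulatory RNAs. In RefSeq (GRCm38.p6) the H19 gene (chr7:142575529-142578143, minus strand) holds 1 microRNA hairpin with 2 mature products, and Mirg (chr12:109729764-109749460, plus strand), in the Dlk1-Dio3 locus, holds 14 hairpins with 26 mature products and 25 distinct seeds. Only miR-453 and miR-496a-5p share a seed among them. Capitals mark the seed, bases 2 to 8, of the H19 products and of that pair:
mmu-miR-675-5p: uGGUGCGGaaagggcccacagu
mmu-miR-675-3p: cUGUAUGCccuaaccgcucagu
mmu-miR-453: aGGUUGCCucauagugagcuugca
mmu-miR-496a-5p: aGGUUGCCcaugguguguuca
The values below are those of the host genes, and mature microRNAs were not analysed here.

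Mirg measured 1.29, 1.64, 1.16 and 1.74 CPM in controls and 7.09, 7.23, 5.16 and 7.66 CPM in M-p110αKO. H19 measured 337, 259, 411 and 333 CPM in controls and 704, 657, 659.7 and 1138 CPM in knockouts. For both RNAs the lowest knockout was above the highest control, and knockout 8 stood above the other knockouts for H19. The log2 fold changes were 2.18 ± 0.31 for Mirg and 1.24 ± 0.19 for H19 (edgeR adjusted p = 0.00409 and 0.00409). All 4 transcripts tested at these 2 imprinted loci were nominally higher, with a median of 1.15 that includes Mirg and H19 themselves. The list held 9 genes, and Begain, Dio3, Dlk1, Rian and Rtl1, with at most 2 reads in any fed library, were not tested. Meg3, the maternally expressed noncoding RNA upstream of Mirg, read 4.58 ± 1.42 CPM in controls and 9.41 ± 2.86 CPM in knockouts (1.06 ± 0.31, edgeR adjusted p = 0.141). Among 23 other imprinted genes 0 were called by edgeR, with 2 nominally higher and 2 nominally lower.

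Changes in the contractile apparatus went both ways within single lists. Igfn1 measured 32.1, 53.6, 24.5 and 26.1 CPM in controls and 126, 187, 114 and 225 CPM in knockouts. The knockouts lay far above the controls, and the log2 fold change was 2.25 ± 0.37 (edgeR adjusted p = 0.00795). Among 42 Z-disc and costamere proteins 1 was called higher and 2 lower, with a median of −0.03. Sorbs2, an adaptor of the Z-disc, fell from 148 ± 14.8 to 68.3 ± 19.9 CPM (−1.11 ± 0.20) and Dmd, dystrophin, which links the cytoskeleton to the membrane, from 119 ± 15.8 to 80.8 ± 8.86 CPM (−0.56 ± 0.11). Ankrd2, a stretch-responsive Z-disc protein, read 25.5 ± 1.51 CPM in controls and 63.7 ± 30.5 CPM in knockouts and was higher in all knockouts, but was not called (edgeR adjusted p = 0.0856). Sorbs2 overlaps the antisense gene Sorbs2os, and whether reads were counted by strand is not given in the sources used here.

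In the thick filament, Mybph, myosin binding protein H, measured 33.4, 39.5, 19.3 and 26.8 CPM in controls and 5.47, 9.08, 11.8 and 4.05 CPM in knockouts. It fell by 1.98 ± 0.30 on the log2 scale, with no overlap, and shares its locus with Adora1 on the opposite strand, which had a log2 fold change of −1.13 (edgeR adjusted p = 0.258). It was the only gene called of 23 thick filament and myosin-binding genes, of which 1 was nominally higher and 7 nominally lower (median −0.04). Among the abundant members Myh4, the type IIb myosin heavy chain, read 68525 ± 9856 CPM in controls and 52445 ± 6043 CPM in knockouts (−0.39 ± 0.12, edgeR adjusted p = 0.184) without overlap, while Myh7, the slow chain, read 8.72 ± 8.18 CPM in controls and 2.39 ± 0.991 CPM in knockouts with overlapping groups. Of 19 fast type IIb genes 0 were nominally higher and 4 nominally lower, and of 19 slow and type IIa genes 3 were higher and 4 lower, with 0 called by edgeR in either list. In the thin filament 0 of 22 genes were called by edgeR (3 nominally higher and 3 nominally lower), and the actin nucleator Lmod2 read 131 ± 24.7 CPM in controls and 246 ± 50.0 CPM in knockouts (edgeR adjusted p = 0.139).

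**Figure D2:**
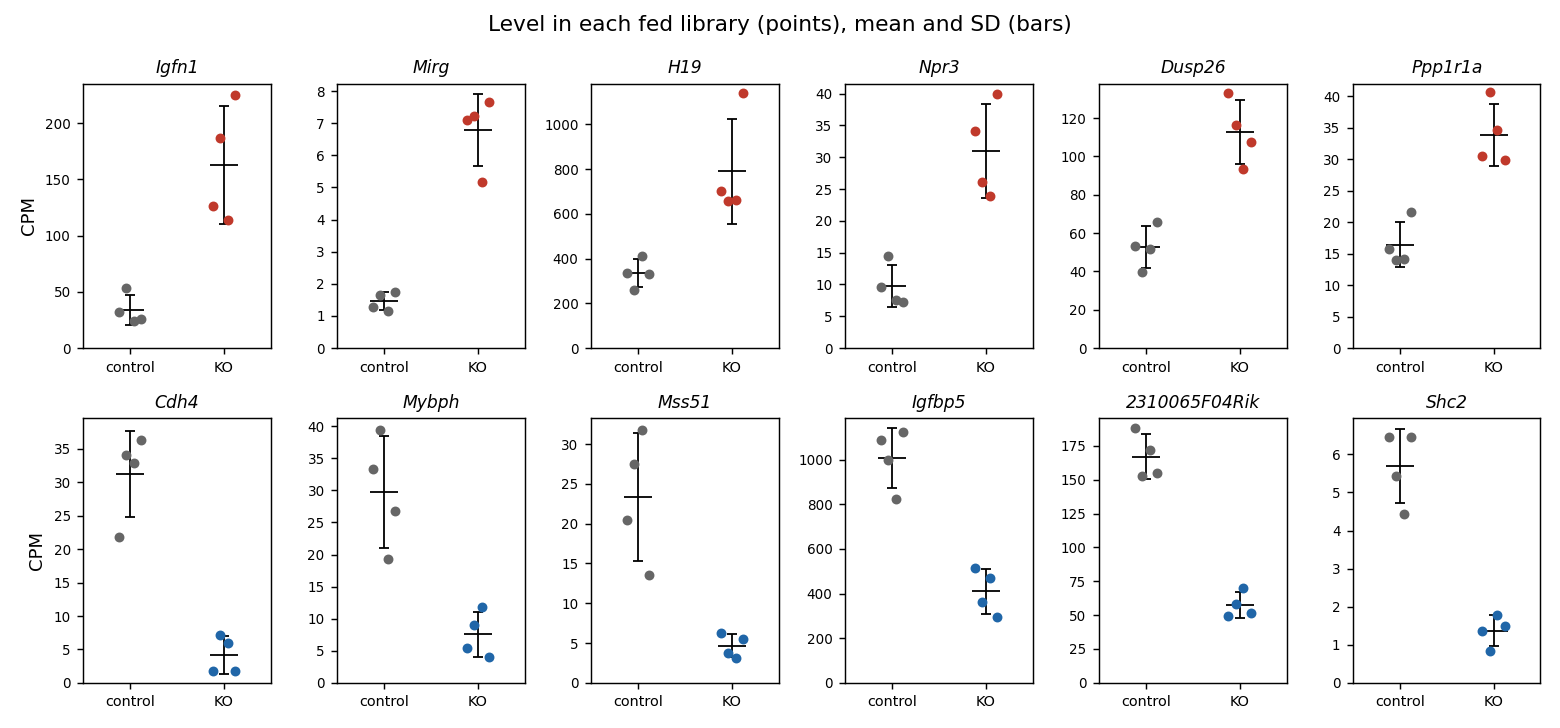
Level in CPM (vertical axis from 0) of 12 called genes in each of the 4 control and 4 knockout (KO) libraries as points, with the mean and SD as bars. In each panel the knockout points lie on 1 side of all control points, above them for the 6 genes of the upper row and below them for the 6 of the lower row.

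Promoters of Igfn1 and Mybph are shown because both were called in all alternatives and both encode proteins of the sarcomere, 1 higher and 1 lower. Each stretch runs from 250 bases before the start of the RefSeq gene to 50 bases within it (GRCm38.p6, chr1:136006293-136006592 on the minus strand for Igfn1 and chr1:134193198-134193497 on the plus strand for Mybph). Capitals mark matches on either strand to GTAAACA, the core of FoxO sites, or to CAGCTG, an E-box of myogenic factors:
Igfn1: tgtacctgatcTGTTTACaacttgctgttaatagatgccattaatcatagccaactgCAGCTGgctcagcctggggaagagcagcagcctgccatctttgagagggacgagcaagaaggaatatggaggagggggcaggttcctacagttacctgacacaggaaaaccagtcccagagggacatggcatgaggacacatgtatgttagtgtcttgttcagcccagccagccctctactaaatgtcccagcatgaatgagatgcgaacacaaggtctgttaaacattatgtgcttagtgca
Mybph: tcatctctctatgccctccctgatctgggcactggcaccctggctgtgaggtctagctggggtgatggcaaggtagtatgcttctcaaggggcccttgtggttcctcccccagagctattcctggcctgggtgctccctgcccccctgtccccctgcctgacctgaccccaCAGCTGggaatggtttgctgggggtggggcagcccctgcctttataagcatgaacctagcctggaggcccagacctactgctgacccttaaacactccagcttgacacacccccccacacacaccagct
Igfn1 had a FoxO match ending 233 bases before its start and an E-box 188 bases before it, and Mybph had an E-box 74 bases before its start. A promoter was found by symbol for 54 of the 76 called genes. The FoxO letters occurred in 1 of 14 promoters of genes called higher and 1 of 40 called lower, and in 4.05% of all 27025 genes with a promoter and 3.07% of the 9362 of tested genes. The E-box letters occurred in 3 of 14 and 14 of 40 promoters, and in 18.3% of all and 18.5% of those tested. A match in these letters is a description and not evidence of binding.

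Igfn1 also had the only called neighbour. Of all pairs among the 76 genes, Igfn1 and Tmem9, which encodes a membrane protein of lysosomes, were the 1 pair within 100000 bases: they are transcribed away from each other with 1808 bases between them. Tmem9 measured 4.94, 6.83, 5.97 and 5.49 CPM in controls and 7.96, 17.3, 11.8 and 9.69 CPM in M-p110αKO. The groups did not overlap, and the log2 fold change was 1.02 ± 0.22 (edgeR adjusted p = 0.0439), a call that held in 1 of 8 fits with a library left out. In fasted muscle both genes were called higher as well, with log2 fold changes of 3.50 ± 0.40 for Igfn1 and 1.81 ± 0.24 for Tmem9.

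Kcnj11 and Scn4a, channels that set the excitability of the fiber, fell. Of 27 muscle ion channels and pumps 0 were called higher and 3 lower, 2 were nominally higher and 9 nominally lower, and the median was −0.22. Kcnj11, the pore of the ATP-sensitive potassium channel, had a log2 fold change of −0.65 ± 0.14 with control 3 and knockout 7 almost level at 21.8 CPM. Scn4a, the sodium channel of the muscle action potential, measured 897, 908, 943 and 934 CPM in controls and 711, 582, 773 and 686 CPM in knockouts. The controls were closer to each other than the knockouts, and the log2 fold change of Scn4a was −0.42 ± 0.09. With a library left out the call of Scn4a held in 1 of 8 fits and that of Kcnj11 in 2 of 8. Clcn1, the chloride channel that stabilises the resting membrane, read 228 ± 8.45 CPM in controls and 174 ± 18.2 CPM in knockouts without overlap but was not called (edgeR adjusted p = 0.067). Outside the list, the sodium-calcium exchanger Slc8a1 had a log2 fold change of −0.96 ± 0.17.

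For calcium handling and excitation-contraction coupling 0 of 30 genes were called by edgeR, yet 3 were nominally higher and 8 nominally lower, 24 were negative and the median was −0.17. Ryr1, the calcium release channel, read 6273 ± 876 CPM in controls and 4663 ± 582 CPM in knockouts (−0.43 ± 0.12, edgeR adjusted p = 0.133), and Cacna2d1, an accessory subunit of its voltage sensor, read 826 ± 74.6 CPM in controls and 609 ± 67.9 CPM in knockouts (−0.44 ± 0.11, 0.0856). Stac3, an adaptor of the same complex, had a log2 fold change of −0.41 ± 0.11 and Camk2b, a calcium-dependent kinase, one of −0.46 ± 0.13. At the neuromuscular junction, among 25 genes, Scn4a was the only gene called, with 4 nominally higher and 3 nominally lower. Chrna1, the acetylcholine receptor subunit that rises on denervation, read 12.5 ± 1.67 CPM in controls and 32.5 ± 11.6 CPM in knockouts (1.37 ± 0.33, edgeR adjusted p = 0.0734), and Myog, a regulator of denervation genes, read 1.99 ± 0.229 CPM in controls and 4.56 ± 1.39 CPM in knockouts (1.22 ± 0.33, 0.114). Ky, which encodes a muscle peptidase required for normal muscle growth, was called and fell from 345 ± 53.9 to 179 ± 38.9 CPM (−0.95 ± 0.16).

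The cadherin Cdh4 and its partner Ctnna3 fell. Cdh4 measured 21.8, 34.0, 33.0 and 36.3 CPM in controls and 1.74, 7.13, 5.95 and 1.76 CPM in M-p110αKO. Ctnna3, a catenin that joins cadherins to actin, measured 6.77, 6.96, 5.59 and 6.10 CPM in controls and 2.99, 2.22, 1.80 and 2.73 CPM in knockouts. Both groups lay apart in each case, and the log2 fold changes were −2.90 ± 0.39 and −1.39 ± 0.27 (edgeR adjusted p = 0.00409 and 0.0187), the 2 genes called of 17 cadherins and partners (median 0.02, 9 positive). Itga4, the integrin α4 subunit, measured 30.7, 42.9, 36.0 and 26.7 CPM in controls and 13.3, 13.2, 20.8 and 11.8 CPM in knockouts. Actr3b, an isoform of a subunit of the actin-nucleating Arp2/3 complex, measured 72.1, 55.1, 65.1 and 51.2 CPM in controls and 16.8, 26.8, 35.1 and 8.72 CPM in knockouts. Itga4 had a log2 fold change of −1.20 ± 0.18 and Actr3b one of −1.48 ± 0.31, without overlap, and Actr3b was the only gene called of 24 Arp2/3 and actin nucleation genes. Ripor2, an inhibitor of the GTPase RhoA, measured 5.69, 6.07, 6.55 and 3.92 CPM in controls and 2.61, 1.67, 3.48 and 2.11 CPM in knockouts (−1.16 ± 0.25). The kinesin Kif3c (−0.66 ± 0.13) and the semaphorins Sema3a (−1.82 ± 0.40) and Sema6c (−0.50 ± 0.11) were also called lower. Extl3 (−0.59 ± 0.09), which acts in heparan sulfate synthesis, B3galnt2 (−0.51 ± 0.10), which acts on dystroglycan, and Galnt17 (−0.98 ± 0.18), a glycosyltransferase, were in no list and were called lower.

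Among 30 muscle ubiquitin ligases 0 were called higher and 3 lower, with 1 nominally higher and 9 nominally lower and a median of −0.11. The 3 called were Asb18 (−0.66 ± 0.12) and Asb10 (−0.51 ± 0.09), substrate adaptors with a SOCS box, and Klhl31 (−0.54 ± 0.11), a kelch adaptor of muscle. Outside any list, and picked for their calls, Psme4, the proteasome activator PA200, fell from 688 ± 47.2 to 477 ± 54.3 CPM (−0.53 ± 0.11) and the ligase Ube3c was called lower (−0.39 ± 0.08), a call lost with any 1 of the 8 libraries left out. The ligase Rnf114, likewise in no list, was called higher (0.58 ± 0.11). Eef1a1, the translation elongation factor that adult muscle largely replaces with Eef1a2, rose by 0.55 ± 0.12 on the log2 scale (edgeR adjusted p = 0.0477), a call that was lost in the same way. Eef1a2 itself had a log2 fold change of −0.28 ± 0.12 (edgeR adjusted p = 0.35), with overlapping groups. Eef1a1 has many processed copies in the genome, so its count may share reads with them.

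Metabolic lists other than those of oxidative phosphorylation and the TCA cycle gave 1 called gene. Acsl3, a long-chain acyl-CoA synthetase, measured 29.5, 43.2, 28.7 and 48.7 CPM in controls and 20.9, 18.3, 23.6 and 12.5 CPM in M-p110αKO. It fell by 1.01 ± 0.21 on the log2 scale and stood against its list, in which 27 of 38 genes of fatty acid uptake and oxidation were positive, 6 were nominally higher and 2 nominally lower and the median was 0.15. Etfb, which passes electrons from fatty acid oxidation, read 25.2 ± 2.68 CPM in controls and 34.9 ± 5.77 CPM in knockouts (0.47 ± 0.14, edgeR adjusted p = 0.16). Among 26 genes of glucose uptake and glycogen 0 were called by edgeR, with 3 nominally higher and 5 nominally lower. Tbc1d4, the AKT substrate AS160 that holds GLUT4 inside the cell, read 27.9 ± 4.87 CPM in controls and 46.4 ± 1.52 CPM in knockouts (0.74 ± 0.18, edgeR adjusted p = 0.0789), and Phka1, the muscle regulatory subunit of phosphorylase kinase, read 2232 ± 303 CPM in controls and 1682 ± 83.5 CPM in knockouts (−0.41 ± 0.11, 0.104), each without overlap. Glycolysis had 0 called of 27 by edgeR, with 1 nominally higher and 0 nominally lower and a median of 0.03. In the polyamine list, with 0 of 13 called by edgeR and 0 nominally higher and 3 nominally lower, Amd1, which makes the aminopropyl donor, read 709 ± 134 CPM in controls and 395 ± 122 CPM in knockouts (−0.84 ± 0.20, edgeR adjusted p = 0.067). Amd2 is a near copy of Amd1, so reads may be split between them. Lipid droplet and lipogenesis genes had 0 of 28 called by edgeR (3 nominally higher and 2 nominally lower), and Plin3, a lipid droplet coat protein, read 15.6 ± 6.38 CPM in controls and 32.5 ± 8.63 CPM in knockouts (1.05 ± 0.25, edgeR adjusted p = 0.067).

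The remaining lists held 2 calls, both of genes described above: Eef1a1 among 33 translation factors (2 nominally higher and 2 nominally lower) and Cdkn1a among 20 glucocorticoid-responsive genes (4 higher, 0 lower). No gene was called by edgeR among 23 WNT pathway genes (1 nominally higher and 2 nominally lower), 22 embryonic and regeneration genes (3 and 1), 23 of cholesterol synthesis and uptake (1 and 2), 20 of creatine, AMPK and adenine nucleotides (3 and 4), 28 of amino acid transport and breakdown (2 and 0), 17 of one-carbon and nucleotide metabolism (1 and 1), 24 PGC-1, PPAR and ERR regulators (1 and 4), 18 tubulins and microtubule genes (1 and 3), 19 muscle-secreted factors (1 and 2) or 25 of mitochondrial fusion, fission and quality control (1 and 1). Their medians were −0.09 to 0.17. Dkk3, a secreted WNT modulator, read 7.88 ± 1.66 CPM in controls and 2.43 ± 0.754 CPM in knockouts without overlap (−1.74 ± 0.44, edgeR adjusted p = 0.0856). Nmrk2, which makes NAD from nicotinamide riboside in muscle, read 55.2 ± 7.99 CPM in controls and 103 ± 27.6 CPM in knockouts, also without overlap (0.89 ± 0.22, edgeR adjusted p = 0.0767).

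**Figure D3:**
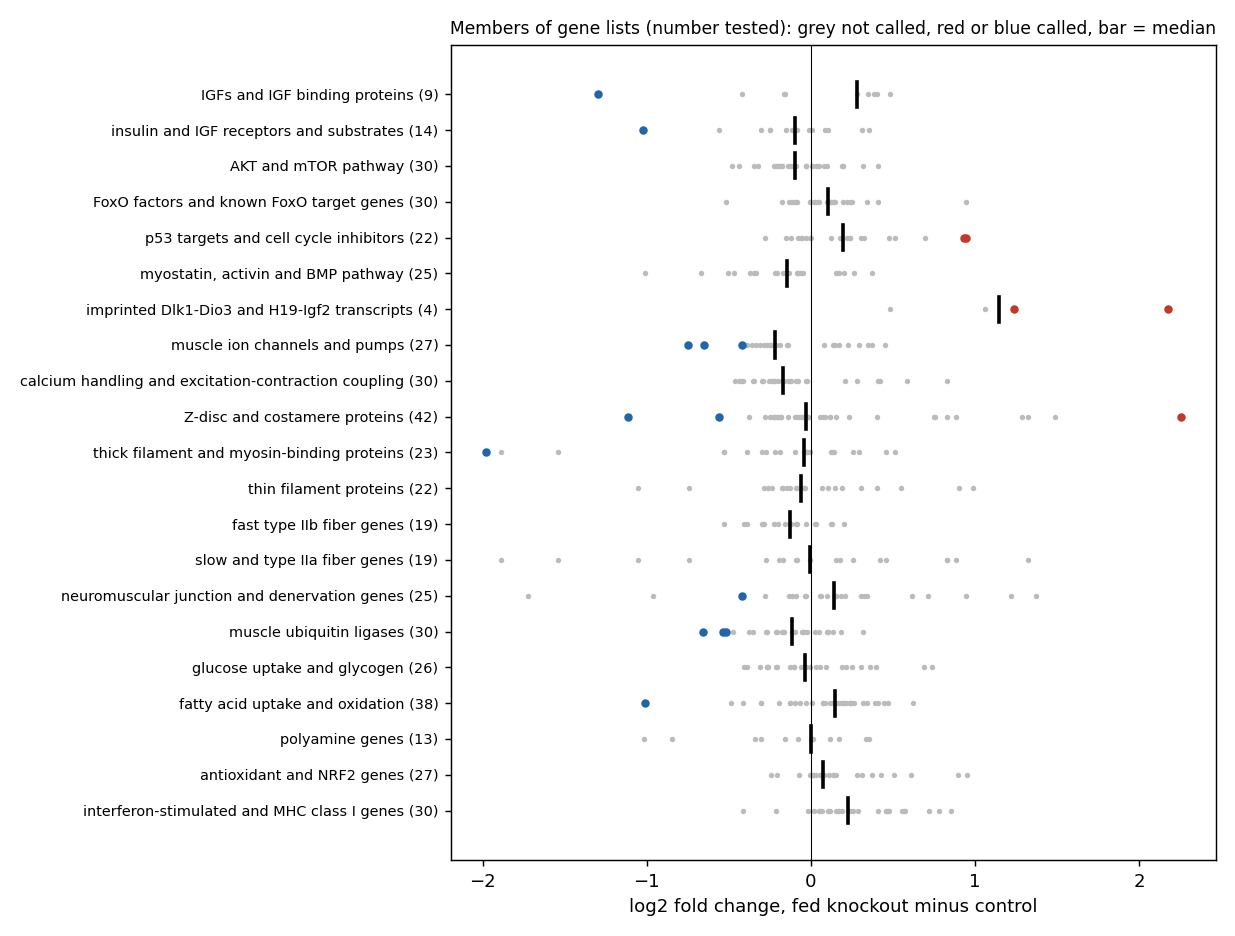
Log2 fold change, knockout minus control (horizontal), of every tested member of 21 gene lists, 1 list per line with its number tested, with called members in red (higher) or blue (lower) and the list median as a bar. Medians lie between −0.22 for ion channels and 0.28 for IGFs and binding proteins, apart from 1.15 for the 4 transcripts of the Dlk1-Dio3 and H19-Igf2 loci.

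The rises outside any list included Npr3, Dusp26 and Ppp1r1a. Npr3 measured 9.56, 14.4, 7.52 and 7.32 CPM in controls and 34.1, 26.0, 23.9 and 39.9 CPM in knockouts. Dusp26, a dual specificity phosphatase, measured 53.4, 39.5, 51.6 and 66.0 CPM in controls and 133, 116, 93.6 and 107 CPM in knockouts. Ppp1r1a, the inhibitor 1 of protein phosphatase 1, measured 15.8, 14.0, 14.1 and 21.6 CPM in controls and 30.5, 40.6, 34.6 and 29.9 CPM in knockouts. All 4 knockouts were above all 4 controls for these 3 genes, whose log2 fold changes were 1.67 ± 0.32, 1.09 ± 0.16 and 1.03 ± 0.16. Another inhibitor of protein phosphatase 1, Ppp1r14c, fell from 159 ± 21.4 to 87.1 ± 22.3 CPM (−0.87 ± 0.16). Tulp3, which carries receptors into cilia, measured 18.4, 14.7, 13.3 and 10.9 CPM in controls and 30.9, 40.2, 34.3 and 19.1 CPM in knockouts. Mfhas1, a leucine-rich repeat protein with a GTPase domain, measured 10.9, 10.5, 11.6 and 10.4 CPM in controls and 19.4, 19.7, 20.0 and 31.9 CPM in knockouts. Tulp3 and Mfhas1 rose by 1.12 ± 0.20 and 1.08 ± 0.22 on the log2 scale, and for Mfhas1 knockout 8 lay above the other 3, which were within 1 CPM of each other.

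Slc47a1, an exporter of organic cations, measured 28.6, 33.5, 31.4 and 35.8 CPM in controls and 47.1, 61.4, 49.3 and 86.6 CPM in knockouts (0.92 ± 0.20). The membrane protein gene Tmem71 measured 2.79, 1.90, 1.35 and 2.09 CPM in controls and 4.73, 5.37, 3.59 and 3.26 CPM in knockouts (1.01 ± 0.22). The lowest knockout stayed above the highest control for both. AW112010, a lincRNA induced in immune cells, measured 3.76, 3.79, 4.05 and 4.09 CPM in controls and 6.97, 11.5, 6.17 and 6.08 CPM in knockouts (0.97 ± 0.21). The pseudogene Btnl7-ps of the butyrophilin family measured 1.83, 1.39, 0.771 and 0.784 CPM in controls and 4.11, 4.35, 3.70 and 2.47 CPM in knockouts (1.58 ± 0.32), and reads of related genes may be assigned to it. Smaller rises of well measured genes were those of Tspan13 (0.74 ± 0.12), the phospholipase Pla2g16 (0.50 ± 0.10) and C1qbp (0.46 ± 0.09), a protein of the mitochondrial matrix. The largest called rise by fold, that of Catsperg1, was at a low level, from 0.235 ± 0.115 to 1.97 ± 0.707 CPM.

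The falls outside any list included Mss51 and several RNAs of unknown function. Mss51 measured 20.5, 27.4, 31.8 and 13.5 CPM in controls and 6.22, 3.80, 3.14 and 5.46 CPM in M-p110αKO. The noncoding RNA 2310065F04Rik measured 188, 153, 172 and 155 CPM in controls and 49.4, 58.5, 70.3 and 51.3 CPM in knockouts. Mss51 had a log2 fold change of −2.30 ± 0.41 and 2310065F04Rik one of −1.54 ± 0.22, and neither gene had overlapping groups. The lincRNA 9830004L10Rik measured 5.69, 7.97, 5.59 and 3.40 CPM in controls and 0.373, 1.30, 2.13 and 0.969 CPM in knockouts, and Gm32200 4.51, 5.44, 3.08 and 4.70 CPM in controls and 1.74, 1.76, 2.81 and 1.41 CPM in knockouts. Their log2 fold changes were −2.21 ± 0.39 and −1.23 ± 0.27. Tdrp, named for its expression in developing testis, measured 8.81, 6.83, 4.82 and 7.23 CPM in controls and 2.61, 3.34, 2.47 and 2.47 CPM in knockouts (−1.36 ± 0.20). Lrp2bp, which binds the receptor megalin, measured 11.8, 9.99, 5.78 and 10.0 CPM in controls and 3.48, 3.71, 4.15 and 2.99 CPM in knockouts (−1.42 ± 0.26). Well measured falls of other kinds included the phosphate exporter Xpr1 (−0.80 ± 0.15), the cAMP phosphodiesterase Pde7a (−0.61 ± 0.12), the Mediator kinase Cdk19 (−0.97 ± 0.16) and the secreted glycoprotein Creg1 (−0.65 ± 0.12).

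The stress, clock, immune and matrix lists read here held 0 calls. The integrated stress response (22 tested), heat shock proteins (29), antioxidant genes (27), the clock (20), immediate early genes (24) and the mitochondrially encoded mRNAs (13) had 0 called by edgeR, and 0, 1, 3, 1, 3 and 0 genes nominally higher and 1, 0, 0, 2, 0 and 0 nominally lower. The antioxidant genes were positive in 23 of 27, with a median of 0.08. Interferon-stimulated and MHC class I genes were positive in 27 of 30 with a median of 0.23, of which 4 were nominally higher and 0 nominally lower and 0 were called by edgeR. Collagen and matrix genes were positive in 28 of 38 (median 0.13) with 0 called by edgeR and 1 nominally higher and 3 nominally lower.

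The marker genes of other cell types are given beside these values, since in bulk muscle fewer cells of a type and less RNA per cell cannot be told apart. The summed level of 8 macrophage markers was 17.7–26.2 CPM in controls and 21.0–43.2 CPM in knockouts, a difference of 0.49 in mean log2 sum (exact two-sided permutation p = 0.114, adjusted over 12 lists 0.411). For 8 fibroblast and fibro-adipogenic progenitor markers the sums were 253–406 and 310–621 CPM (difference 0.28, exact permutation p = 0.429). For the 8 adipocyte markers they were 2902–6182 and 5357–7649 CPM (0.63, exact permutation p = 0.0571), but Car3, which muscle also makes, gave 2783–6088 and 5240–7528 CPM of this, and the other 7 summed to 89.0–124 and 115–139 CPM (0.26, exact permutation p = 0.114). Muscle fiber markers summed to 122115–158211 and 113113–120794 CPM, with no overlap (−0.19, exact permutation p = 0.0286, the smallest that 4 against 4 libraries allow, adjusted 0.343). Most of this was Myh4, at 62903–83253 and 44488–58722 CPM, and the other 9 fiber markers summed to 57476–75181 and 59273–68826 CPM with overlapping groups (−0.02, exact permutation p = 0.771). The sums without Car3 and without Myh4 were added after the data had been seen. Sums for satellite cells, endothelial cells, pericytes, Schwann cells, tenocytes, mast cells, lymphocytes and erythroid cells overlapped between the groups. The part of these cells in the differences above was not tested.

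**Figure D4:**
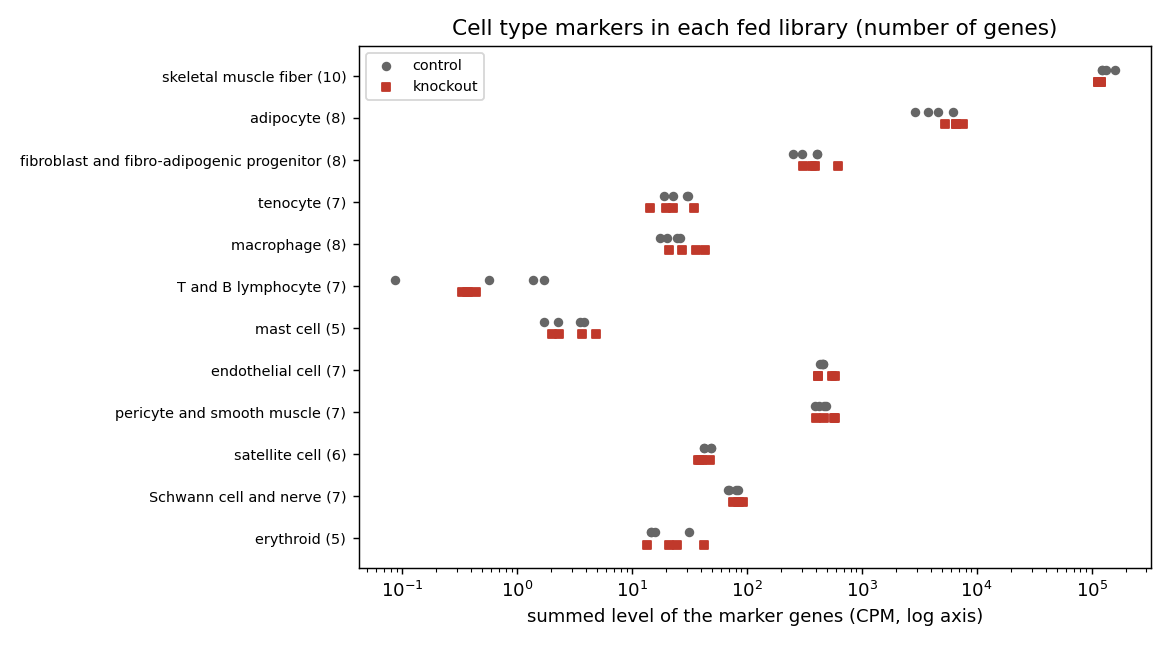
Summed level (CPM, log axis) of the marker genes of 12 cell types in each fed library, with controls as grey circles and knockouts as red squares, and the number of genes in each list in brackets. The groups overlap on every line except that of skeletal muscle fibers, where, chiefly through Myh4, all knockouts are at or below 120794 CPM and all controls at or above 122115 CPM.

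The largest called fall, Ighm, the heavy chain of immunoglobulin M made by B cells, stood beside such markers. It measured 59.4, 148, 12.7 and 16.2 CPM in controls and 1.87, 4.35, 14.7 and 4.23 CPM in M-p110αKO. Knockout 7 lay between controls 3 and 4, so the groups overlapped, and the log2 fold change of −3.25 ± 0.67 (edgeR adjusted p = 0.0289) was called in 3 of 8 fits with a library left out. The 7 T and B lymphocyte markers summed to 1.72, 1.39, 0.577 and 0.0870 CPM in the same controls and to 0.336–0.440 CPM in the knockouts, and none of them had enough reads for a test. Neutrophil markers were at or near 0, with Ngp and Retnlg at 0 in all 8 libraries.

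The same genes were then read in fasted mice of this line, other animals with other controls. In fasted M-p110αKO against fasted controls 811 genes, 6.52% of those tested, were called. Of the 24 fed rises 20 were positive there and 16 were called higher, and of the 52 fed falls 48 were negative and 22 called lower, with 0 called in the opposite direction. The median log2 fold change of the fed rises was 1.03 fed and 1.01 fasted, and that of the fed falls −0.95 and −0.60. These genes were picked by their fed values, a choice that by itself tends to make the fed changes the larger. Igfn1, Mirg, Sorbs2 (−1.96 ± 0.22 when fasted) and Actr3b (−2.32 ± 0.38) had larger fold changes when fasted, and Igfbp5 (−0.32 ± 0.21), Mybph (−0.32 ± 0.39), Ky (−0.02 ± 0.18) and Extl3 (−0.12 ± 0.10) were close to 0. The difference between the fasted and the fed effect was tested for every gene and called for 60 (0.483%), of which 2 were among the 76. Cdkn1a rose when fed and had a log2 fold change of −0.29 ± 0.18 when fasted, a difference of −1.22 ± 0.25 (edgeR adjusted p = 0.0387). Sema6c fell when fed and had 0.39 ± 0.12 when fasted, a difference of 0.89 ± 0.16 (edgeR adjusted p = 0.0348). For Igfbp5, Mybph, Ky and Extl3 the adjusted p of the difference was 0.125, 0.133, 0.0837 and 0.112 by edgeR. For Igfn1, Mirg, Sorbs2 and Actr3b it was 0.266, 0.334, 0.181 and 0.436 by edgeR. A different effect was thus not shown for any of these genes. Beside this stood the level of the fasted controls, with Igfbp5 at 129 ± 27.3 CPM in fasted controls and 103 ± 29.7 CPM in fasted M-p110αKO, and Ky at 60.1 ± 11.7 and 59.4 ± 3.50 CPM. For Mybph the fasted controls had 5.19 ± 1.15 CPM and the fasted M-p110αKO 4.26 ± 1.99 CPM. For Igfbp5 and Ky the mean of the fasted controls was below each fed M-p110αKO library. These calls rested on single libraries. The 60 genes became 2–16 without any 1 of control 1, control 2, M-p110αKO 5 or 6, fasted controls 9 to 12 or fasted M-p110αKO 14, 27 without fasted M-p110αKO 13 and 39 without M-p110αKO 8. Cdkn1a stayed called in 5 and Sema6c in 7 of 15 fits with 1 library left out, with adjusted p up to 0.105 and 0.103.

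Loss of the other ubiquitous catalytic subunit, p110β, was read in the same way, in a line that by a genome scan in the study's supplement was less purely C57BL/6. In fed M-p110βKO against its own controls 4 of 12760 genes were called (0.0313%). Of the 24 rises of fed M-p110αKO 17 were positive in M-p110βKO and 0 called, and of the 52 falls 36 were negative and 1, Pde7a, was called lower, at −0.97 ± 0.17 against −0.61 ± 0.12 in M-p110αKO. The median log2 fold changes there were 0.11 for the rises and −0.12 for the falls. The 76 genes were called on the fed p110α values, so smaller values in M-p110βKO are partly built in by that choice. The difference between the lines was called for 17 genes (0.133%), of which 8 were among the 76. They were Cdh4 (0.03 ± 0.39 in M-p110βKO), Mybph (0.70 ± 0.38), Igfbp5 (0.15 ± 0.18), 2310065F04Rik (−0.06 ± 0.21), Tdrp (−0.12 ± 0.18), Adgrl1 (0.46 ± 0.17), Btnl7-ps (−0.62 ± 0.35) and Ighm (0.88 ± 0.56). The edgeR adjusted p of these 8 differences was 0.00722–0.0447. Other falls had the same direction in both lines. Mss51 had −1.20 ± 0.48 in M-p110βKO and −2.30 ± 0.41 in M-p110αKO, and Sema3a −1.68 ± 0.42 and −1.82 ± 0.40. Neither was called in M-p110βKO, and the adjusted p of the difference between the lines was 0.598 and 0.986 by edgeR. Igfbp5 and Mybph stayed called in 13 of 15 fits with 1 library left out, Cdh4 in 11, Adgrl1 and 2310065F04Rik in 8, Tdrp in 5, Ighm in 4 and Btnl7-ps in 3. The 17 genes became 0–10 without control 1 or 2, M-p110αKO 5 or 8, p110β control 17 or 18, or M-p110βKO 19, 21 or 22, and rose to 52 without control 4, 29 without M-p110αKO 7 and 38 without p110β control 16. At 0, without p110β control 18, edgeR still gave 1404 of 13041 genes an unadjusted p under 0.05, limma-voom called 4 genes and DESeq2 44. Genetic background and the floxed gene cannot be told apart in this comparison.

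**Figure D5:**
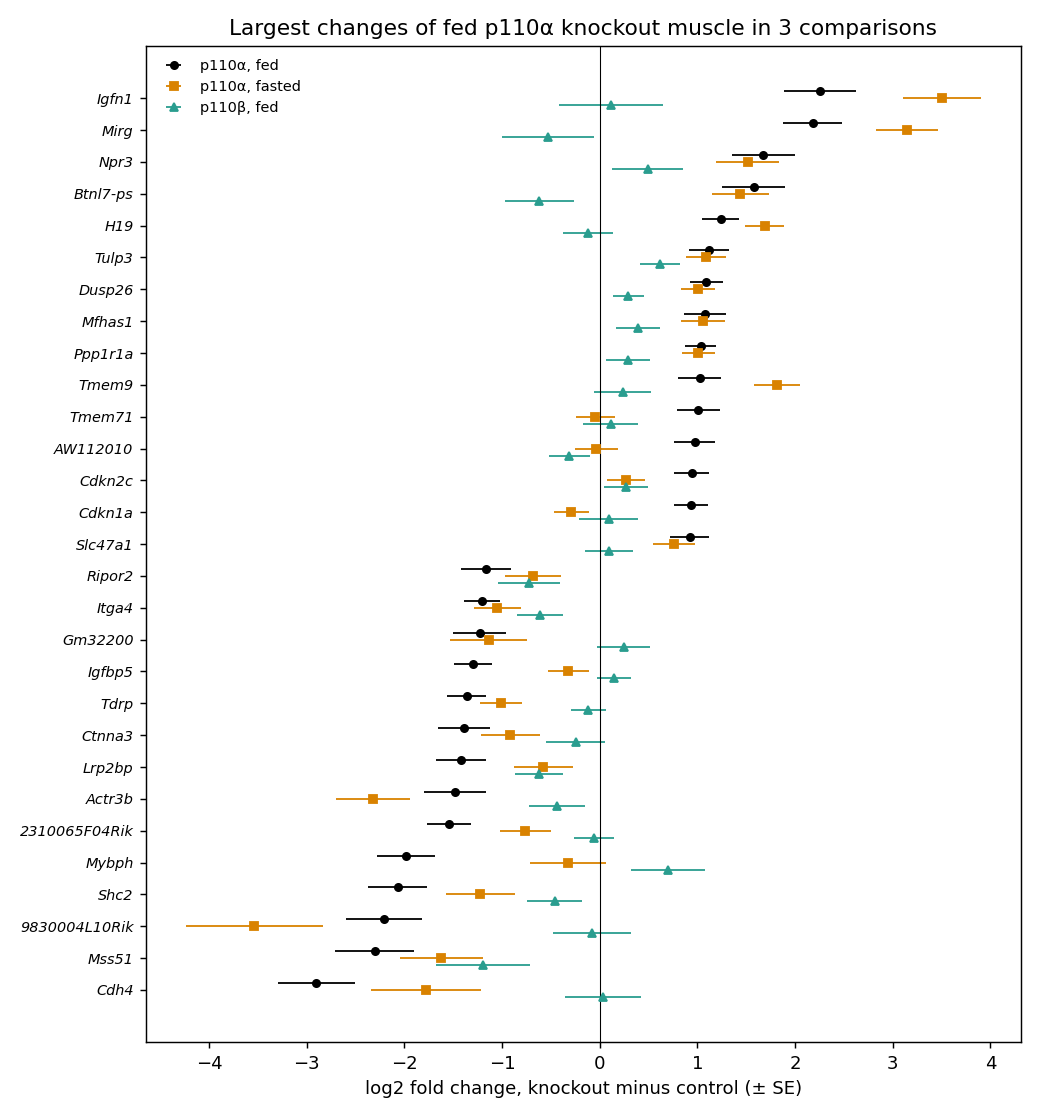
Log2 fold change with SE (horizontal) of the 15 largest separated rises and 14 largest separated falls of fed M-p110αKO with a mean of at least 1 log2 CPM, in fed p110α (black circles), fasted p110α (orange squares) and fed p110β (green triangles) mice. The p110β values lie nearer to 0 than the fed p110α values for all 29 genes plotted. For genes such as Igfn1 and Mirg the fasted p110α values lie beyond the fed ones, and for Cdkn2c and Igfbp5 they lie near 0. The genes were picked by the size of their fed p110α change, so values nearer to 0 in the other comparisons are partly built in.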

How the data were processed

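RNA of skeletal muscle was made into libraries with an mRNA kit (NEBNext), and the labels also name HTG EdgeSeq, another assay, without saying what each was used for. Per the submitters' processing notes reads were aligned to GRCm38 with STAR and assigned to genes with featureCounts of Subread, with versions and strand setting not given in the sources used here. For 29 libraries the authors deposited raw counts per gene in 1 table (48023 genes, summed over exons). Symbols were matched for 47310 Ensembl identifiers through GENCODE M21, and 713 identifiers without a symbol held 0.0292% of reads.

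Counts of the 15 p110α libraries were filtered with filterByExpr (minimum count 10, minimum total 15), scaled by TMM and fitted with the quasi-likelihood test of edgeR 4.0.16 (R 4.3.3), with 1 coefficient per group and Benjamini-Hochberg adjustment. Standard errors were obtained as the absolute log2 fold change over √F. The difference between the fasted and fed effects was an interaction contrast of this fit. The fed p110β contrast and the comparison of the lines came from a fit of all 29 libraries, fed and fasted, with 1 coefficient per group (12760 genes). Summed markers were compared by exact two-sided permutation. In the fed p110α control and knockout groups no libraries agreed within sampling noise, and the other groups were not checked. The chi-square per degree of freedom between libraries was 8.03–9.83 among controls 1 to 3 and 20.6–28.0 against control 4. It was 10.5–14.2 among M-p110αKO 5 to 7 and 20.8–28.0 against M-p110αKO 8. Control 4 and M-p110αKO 8 also had the highest share of mitochondrial reads in their groups, 11.5% and 12.3%. Why they stood apart was not tested.

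Named were every called gene, with values in each library for up to 15 rises and 15 falls (non-overlapping, mean of at least 1 log2 CPM), and of each gene list the called members and up to 4 of lowest p. Some genes that this rule names are not reported here. The 58 lists (1127 genes, 998 tested) and the comparison were chosen with earlier results of these data known. Alternatives were DESeq2 size factors, upper quartile scaling, no filter, a filter of 1 CPM in 3 libraries, DESeq2 1.42.0, limma-voom 3.58.1, the 8 fed libraries alone, scaling without mitochondrial and the 20 most abundant genes, a correction for GC content and length, and leaving out each library. The edgeR test of the fed p110α contrast, and no other, was also tried on simulated counts. Promoters and microRNAs came from RefSeq tables of GRCm38.p6, matched by symbol.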

Additional observations from a re-analysis of the deposited data

Results flagged for a closer look

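Within groups of 4 libraries, 7 values stood apart by Dixon's test on log2 CPM, the scale of the ratios given below. They lay in 6 of 152 groups of called genes and 1 of 24 groups of summed markers, where chance flags about 1 in 20. In M-p110αKO these were H19 (gap to range ratio 0.876), at 1138 CPM in knockout 8 and 657–704 CPM in the others, Mfhas1 (0.942), at 31.9 CPM in knockout 8 and 19.4–20.0 CPM in the others, and Rab40b (0.856), at 20.8 CPM in knockout 6 and 11.2–12.2 CPM in the others. In controls they were Pla2g16 (0.934), at 349 CPM in control 1 and 314–317 CPM in the others, Klhl31 (0.837), at 649 CPM in control 4 and 871–923 CPM in the others, Atp13a5 (0.905), at 13.9 CPM in control 1 and 21.4–22.4 CPM in the others, and the summed erythroid markers (0.880), at 31.6 CPM in control 4 and 14.6–16.0 CPM in the others.

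For 10 of the called genes the knockout effect differed between conditions by edgeR's quasi-likelihood test of the difference. Between fasted and fed mice the difference was −1.22 for Cdkn1a and 0.89 for Sema6c on the log2 scale. Between the p110α and p110β lines it was −2.93 for Cdh4, −1.23 for Adgrl1, −1.44 for Igfbp5, −2.68 for Mybph, −1.24 for Tdrp, 2.19 for Btnl7-ps, −4.13 for Ighm and −1.48 for 2310065F04Rik.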

How the results depend on the processing

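The 76 genes called in fed M-p110αKO became 437 without a filter (52.4% higher, against 31.6% in the fit reported), 201 with DESeq2 (65 higher and 136 lower, 75 shared with the 76) and 44 from the 8 fed libraries alone (43.2% higher, 36 shared). Under the other 6 alternatives they numbered 73–81, and with 1 library left out 16–83. The 60 differences between fasted and fed became 454 without a filter and 237 with DESeq2, and 2–74 with 1 library left out. The 17 differences between lines became 287 without a filter and 72 with DESeq2, and 0–52 with 1 library left out. The cause of these shifts was not tested. Of 3294 alternative values of 194 named genes, 1 changed direction, Atf3, an immediate early gene that was not called (2.30 ± 0.99), at −0.46 without replicate 5 (−0.46 to 2.74 with 1 library left out). Of the 76 genes 34 kept the call under every alternative other than leaving out a library, and 15 under all. Of 118 named genes that were not called, 60 were called under at least 1 alternative. Library sizes of 5351935–11653239 reads limit the test of low genes, and 7 of the called genes had a mean under 1 log2 CPM. No paired analysis was possible because the groups share no replicate numbers.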
